A study of Arabidopsis thaliana with 8 samples.

Results

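SAG29 (AT5G13170), WRKY6 (AT1G62300), WRKY53 (AT4G23810) and AT4G33150, which encodes the lysine catabolic enzyme LKR/SDH, were followed on 8 Affymetrix AtGenome1 arrays of Arabidopsis thaliana rosettes. They are 4 of the 3602 genes to which the array annotation gives a probe set of their own, and each has 1 such probe set. The genes were chosen from earlier results of the same arrays, with their WT against yda-2 differences known, so the genotype values of these 4 genes are a description and carry no test. The arrays compare wild type (WT) with yda-2, a mutant allele of YODA, a kinase gene of the pathway that limits stomata. Plants of both genotypes stood in potting mix at 22 °C under light that was never switched off, and the whole shoot was taken as a rosette that had not bolted. Each genotype has 4 biological replicates, each grown and collected at another time. WT and yda-2 arrays with the same replicate number are called a pair, and the replicate number is called a harvest. That same-numbered samples of both genotypes were collected together is an assumption. The sources used here do not give the plants' age or ecotype, the plants pooled per sample or the nature of the yda-2 lesion, and the YODA transcript was not analysed here.

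Leaf senescence is the ordered end of a leaf's life, in which chlorophyll, protein and membranes are taken apart and their carbon and nitrogen are exported to growing organs. WRKY53 and WRKY6 are transcription factors of the WRKY family, which bind W-box motifs in promoters: WRKY53 is an early activator of senescence that also responds to hydrogen peroxide and salicylate, and WRKY6 is active in senescing and wounded leaves and also represses a phosphate exporter gene. SAG29, also named SWEET15, is a plasma membrane sucrose exporter whose transcript builds up in senescing leaves and under osmotic stress. LKR/SDH carries out the entry steps of lysine breakdown through saccharopine, a route that feeds respiration when sugar is short and that osmotic stress and abscisic acid are known to activate. Its locus is known to give a transcript for the bifunctional enzyme and a shorter one for saccharopine dehydrogenase alone, and the array's single value does not part them. Its probe set also bears the suffix that marks probes able to match more than 1 similar transcript. No sequences are printed, since the reference tables used here hold names only.

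The arrays gave 8247 probe sets without controls, and the 4788 with a mean signal of at least 100 were tested, the 4 genes among them. The labelled leaf tissue could be checked through RCA, PSBW and PSAE-1, the 3 of 14 leaf markers with a probe set, whose mean signals per genotype lay between 9322 and 13170. These means rest mainly on replicates 1 and 2, and in replicate 4 RCA was at 836.9 in WT and 1717.0 in yda-2 and PSAE-1 was at 181.7 and 368.7. The root, flower and seed markers had none. The arrays of replicates 1 and 2 differed from those of replicates 3 and 4 on the first principal component (44.2% of the variance), and their maximum signals were 22519 to 33920 against 6226 to 10422. Replicates 1 and 2, and replicates 3 and 4, are called array sets below. This division was made here and is not given by the labels. WT replicate 2 stood apart on the second component (20.5%), and its mean correlation with the other arrays was 0.819 against 0.873 to 0.903. In yda-2 the bacterial and phage control transcripts were lower in 4 of 4 pairs (mean log2 difference -0.39). Their differences in pairs 1 to 4 were -0.58, -0.32, -0.07 and -0.57. The ratio of ubiquitin 3' to 5' signal was higher in 4 of 4 pairs (mean 0.34), but by only 0.01 and 0.09 in pairs 3 and 4, against 0.59 and 0.66 in pairs 1 and 2. The part of these differences in the genotype values below was not tested. In bulk RNA, fewer cells of a type and less RNA per cell cannot be told apart.

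WRKY53 varied with the replicate number, and its genotype difference had no clear direction. Its signals in WT replicates 1 to 4 were 1068.6, 899.5, 439.6 and 136.4, and in yda-2 replicates 1 to 4 they were 1024.3, 628.9, 592.5 and 178.4. In both genotypes the plants of replicate 1 had the highest signal and those of replicate 4 the lowest, a spread of 7.83-fold in WT and 5.74-fold in yda-2. The genotypes overlapped over nearly their whole range, with a WT mean of 636.0 ± 426.1 and a yda-2 mean of 606.0 ± 345.7 (SD, n = 4 each). Within pairs, yda-2 had 0.959, 0.699, 1.35 and 1.31 times the WT signal, so it was higher in 2 pairs and lower in 2. The mean difference on the log2(signal + 16) scale was 0.05 (SE 0.63, and 0.22 with the pairs as a block). Taken over replicates 1 and 2 alone it was -0.28, and over replicates 3 and 4 alone it was 0.38. Without WT replicate 2 it was 0.33, without WT replicate 4 it was -0.53 and without yda-2 replicate 4 it was 0.53. These values do not show that the genotypes were alike.

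WRKY6 was higher in yda-2 in every pair, and its pair ratios lay closer together than those of SAG29 or AT4G33150. Its signals in WT replicates 1 to 4 were 515.6, 226.4, 256.8 and 218.8, and in yda-2 replicates 1 to 4 they were 716.2, 334.7, 661.6 and 321.9. WT replicate 1 stood above the other WT arrays, and replicates 1 and 3 stood above the others in yda-2, so the genotypes overlapped. Within pairs, yda-2 had 1.39, 1.48, 2.58 and 1.47 times the WT signal. The WT mean was 304.4 ± 141.8 and the yda-2 mean 508.6 ± 209.4 (SD, n = 4 each), and the log2 difference was 0.71 (SE 0.36, and 0.23 with the pairs as a block). Taken over replicates 1 and 2 alone the log2 difference was 0.50, and over replicates 3 and 4 alone it was 0.92. It was 0.60 without WT replicate 2 and lay between 0.52 and 0.98 when any 1 array was left out.

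**Figure D1:**
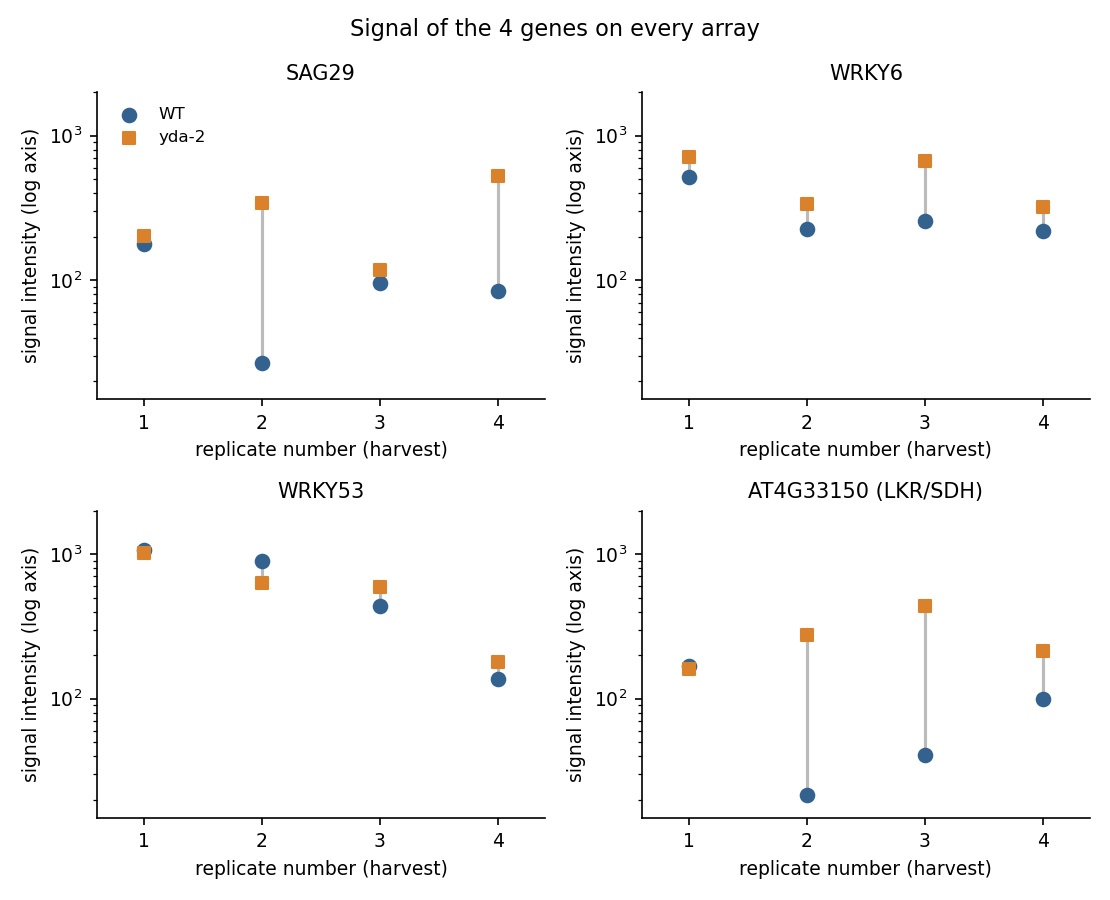
Signal intensity (log axis) of SAG29, WRKY6, WRKY53 and AT4G33150 on each array against the replicate number; blue circles are WT, orange squares are yda-2, and grey lines join the arrays of a pair. WRKY53 is at 1068.6 and 1024.3 in replicate 1 and at 136.4 and 178.4 in replicate 4, while SAG29 and AT4G33150 part the genotypes widely in some pairs and hardly in others.

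SAG29 was higher in yda-2 in every pair, but nearly all of the difference lay in pairs 2 and 4. Its signals in WT replicates 1 to 4 were 178.8, 26.7, 96.3 and 84.2, and in yda-2 replicates 1 to 4 they were 201.7, 340.5, 117.5 and 524.7. Within pairs, yda-2 had 1.13, 12.8, 1.22 and 6.23 times the WT signal, and the genotypes overlapped because WT replicate 1 was above yda-2 replicate 3. The WT mean was 96.5 ± 62.7 and the yda-2 mean 296.1 ± 178.0 (SD, n = 4 each). The log2 difference was 1.48 (SE 0.53, and 0.50 with the block). Taken over replicates 1 and 2 alone it was 1.61, and over replicates 3 and 4 alone it was 1.34. Without the WT replicate 2 array it was 1.07, and without pair 2 it was 0.95.

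AT4G33150 (LKR/SDH) was higher in yda-2 in 3 of 4 pairs, and pair 1 did not share the difference. Its signals in WT replicates 1 to 4 were 168.6, 21.6, 40.5 and 98.8, and in yda-2 replicates 1 to 4 they were 159.3, 273.9, 440.0 and 212.4. The yda-2 arrays other than replicate 1 were above every WT array, and yda-2 replicate 1 was below WT replicate 1, which was the highest WT array. Within pairs, yda-2 had 0.945, 12.7, 10.9 and 2.15 times the WT signal. The WT mean was 82.4 ± 66.2 and the yda-2 mean 271.4 ± 121.8 (SD, n = 4 each), and the log2 difference was 1.72 (SE 0.51, and 0.52 with the block). Taken over replicates 1 and 2 alone it was 1.44, and over replicates 3 and 4 alone it was 2.00. Without the WT replicate 2 array it was 1.34, without pair 2 it was 1.31 and without pair 3 it was 1.29.

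The lowest WT values of SAG29 and AT4G33150 lay among signals of probe sets that have no plant target. The deposited table has no detection calls, so 17 control probe sets for mouse genes, yeast genes and the antisense strand of bacterial and phage transcripts were used as a scale. On WT replicate 2 these controls reached 664.9 and had a median of 72.1, the highest of the 8 arrays on both counts. There SAG29, at 26.7, was below 12 of the 17 controls and AT4G33150, at 21.6, was below 14. WRKY6 was below 4 of them on that array. On WT replicate 3, SAG29 and AT4G33150 were each below 1 control, which was at 103.0, and on yda-2 replicate 2 AT4G33150 was below 1 control, at 312.7. On the other arrays SAG29 and AT4G33150 were above all 17, and WRKY53 was above all 17 on all 8 arrays. The pair 2 ratios of SAG29 and AT4G33150 (12.8 and 12.7) and the pair 3 ratio of AT4G33150 (10.9) thus have a WT signal near or inside the range of these controls. The mean log2 differences moved with the pseudocount: that of AT4G33150 was 2.01 with a pseudocount of 1 and 1.24 with 64, and that of SAG29 was 1.68 and 1.11.

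**Figure D2:**
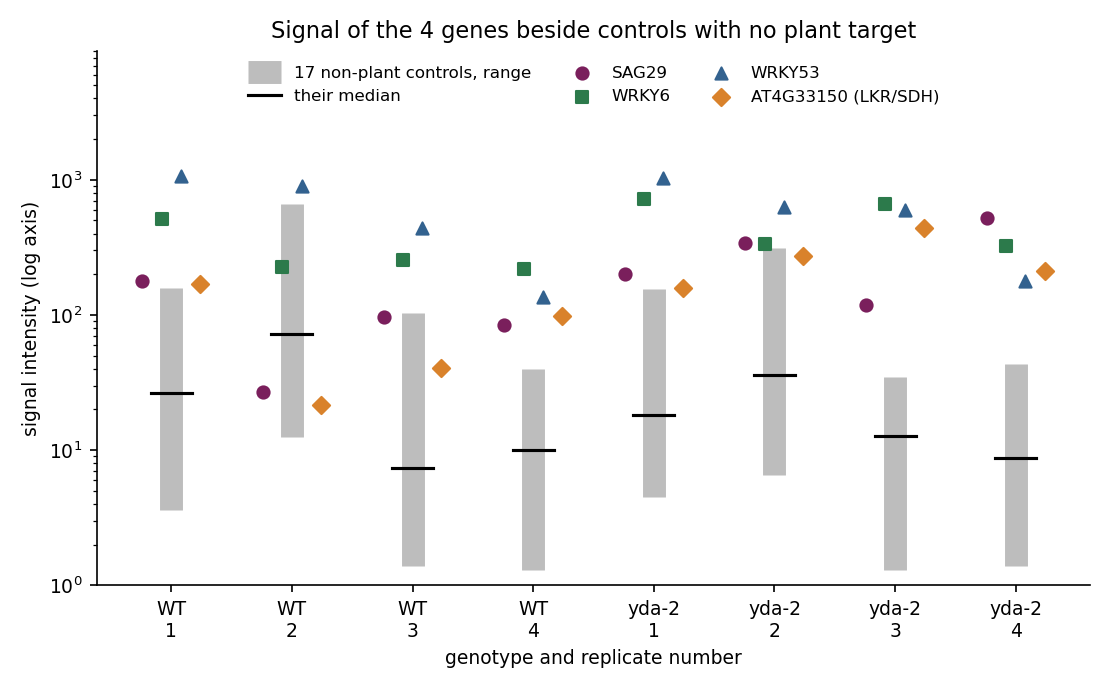
Signal intensity (log axis) of the 4 genes on each array, drawn beside a grey bar for the range of 17 control probe sets with no plant target and a black line for their median. On WT replicate 2 the bar reaches 664.9 and SAG29 and AT4G33150 lie below its median of 72.1, whereas WRKY53 lies above the bar on all 8 arrays.

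In limma fits over all tested probe sets, 0 of the 4 genes had an adjusted p under 0.05 for genotype, where 0.0418% of probe sets did, and 0 of 4 with the pairs as a block, where 0.188% did. At an unadjusted p under 0.05 there were 2 of the 4 genes (SAG29 and AT4G33150) against 3.22% of all tested probe sets, and with the block 3 of 4 (with WRKY6) against 7.1%. SAG29 and WRKY6 were higher in yda-2 in all 4 pairs, as were 9.44% of all tested probe sets. The genes were picked with this comparison in view, so these counts are no test of them and nothing is read from them. SAG29 and AT4G33150 also had WT means under the filter of 100, and passed it through their yda-2 signals. The median log2 difference of the 4 genes was 1.09, and that of all tested probe sets was 0.02. The genes were chosen with these values known, so nothing is read from that gap either.

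Among the other measured genes of lysine breakdown, ALDH7B4 was the farthest from a genotype difference of 0, and none passed the test. Of the 10 genes listed for lysine breakdown, pipecolate formation and the electron transfer that drains them, 5 had a probe set, and 4 of these are other than AT4G33150. ALDH7B4 encodes the aldehyde dehydrogenase that acts on aminoadipic semialdehyde, the product of LKR/SDH. Its signals were 436.2, 326.9, 601.3 and 835.5 in WT replicates 1 to 4 and 692.2, 473.1, 1505.7 and 1155.0 in yda-2 replicates 1 to 4. It was higher in yda-2 in 4 of 4 pairs, as were 9.44% of all tested probe sets, and the groups overlapped. Its log2 difference of 0.73 (SE 0.39) missed the threshold (adjusted p = 1.00, or 0.436 in the blocked fit). SOX, which encodes a sarcosine oxidase able to oxidize pipecolate, had log2 pair differences of 0.25, 0.11, 0.32 and 0.16, a mean of 0.21 (SE 0.24, adjusted p = 1.00). D2HGDH, a mitochondrial dehydrogenase of hydroxyglutarate, was at 0.07 (SE 0.32), and ETFQO, which passes electrons from such dehydrogenases to the ubiquinone pool, was at -0.09 (SE 0.32). Of these 4 genes 0 passed in either direction, with or without the block. At an unadjusted p under 0.05 there were 0 without the block (3.22% of all tested probe sets) and 1, ALDH7B4, with it (7.1%). Their median log2 difference was 0.14, against 0.02 for all tested probe sets. In the list of other amino acid breakdown, MCCA and MCCB, the subunits of the leucine pathway's carboxylase, were at 0.64 and -0.04, HML1, its lyase, was at -0.03, and 0 of the 3 passed. The 17 genes of lysine synthesis had no named probe set.

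The other measured senescence genes showed no common direction. Of the 46 listed genes 7 had a probe set and 6 were tested, 3 of them SAG29, WRKY6 and WRKY53. WRKY22, a regulator of dark-induced senescence, was lower in yda-2 in 4 of 4 pairs, with a log2 difference of -0.25 (SE 0.50). The share of all tested probe sets that were lower in every pair was not counted. EIN3, the transcription factor of ethylene signalling that promotes senescence, had 4837.9, 5310.4, 4654.8 and 4790.4 in WT and 2509.4, 4597.8, 4477.8 and 3872.8 in yda-2. All of its yda-2 signals were below all WT signals, as for 0.647% of tested probe sets, and its log2 difference of -0.38 (SE 0.27) missed the threshold (adjusted p = 1.00, or 0.716 in the blocked fit). GAMMA-VPE, a vacuolar processing protease, was at 0.11 (SE 0.28). Of these 3 genes 0 passed with or without the block, and 0 had an unadjusted p under 0.05 in either fit. Their median was -0.25. The tested autophagy genes, ATG4A, ATG8A, ATG8C, ATG8D, ATG8E and ATG8F, lay between -0.07 and 0.41, with 5 of 6 above 0, a median of 0.09 and 0 passing (unadjusted p under 0.05 in 0). No chlorophyll breakdown or salicylate defence gene on the lists had a named probe set.

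**Figure D3:**
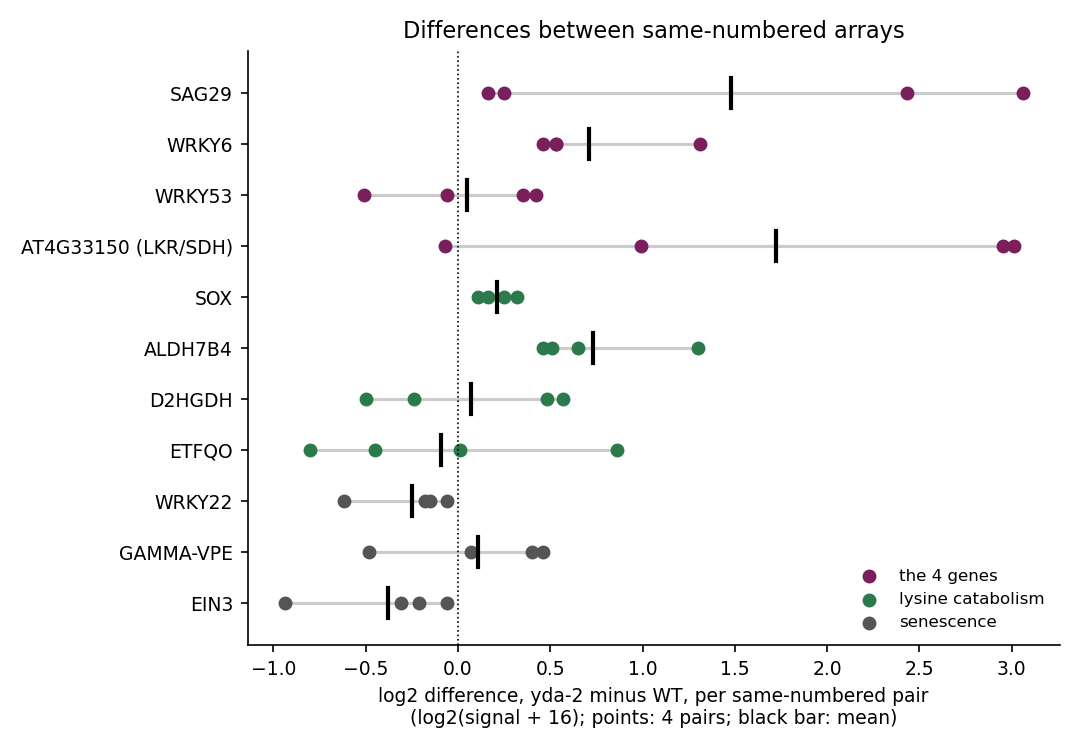
Log2 difference, yda-2 minus WT, in each of the 4 pairs (points) and its mean (black bars) for the 4 genes and for the other tested genes of the lysine breakdown and senescence lists. AT4G33150 spans -0.07 to 3.01 and SAG29 0.16 to 3.06, whereas the 4 ALDH7B4 points lie at 0.46 and above and the 4 WRKY22 points below 0.

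The few measured genes that share a family or a stress response with the 4 had no call in the genotype comparison. Probe sets were present for 5 of 23 listed sugar transporters, 4 of 25 response genes and 7 of 67 WRKY genes. Of the WRKY genes 5 were tested. These counts include SAG29, WRKY6 and WRKY53. Among sugar transporters, SAG29 stood at 1.48, and SWEET17, a vacuolar fructose transporter, STP3, a hexose transporter, and TMT1 and TMT2, transporters of the vacuolar membrane, were at -0.12, 0.11, -0.34 and -0.27. Without WT replicate 2, SWEET17 was at 0.38. Of the abscisic acid and osmotic response genes, which are known to share stimuli with SAG29 and AT4G33150, COR15B and KIN2 were lower in yda-2 in 4 of 4 pairs, at -1.24 and -0.47. The transporter gene TMT1 was also lower in 4 of 4 pairs. How many of all tested probe sets were lower in every pair was not counted, so nothing is read from these runs. XERO2 was at -0.79, and at 0.09 without pair 2, and COR47 was at 0.09 (-0.05 on its other probe set). None of the 4 transporters and 4 response genes passed in limma with or without the block, where the lowest adjusted p was 0.146, for COR15B. At an unadjusted p under 0.05 there were 0 transporters in either fit, and 1 response gene (COR15B) without the block and 2 (COR15B and KIN2) with it. Of all tested probe sets 3.22% were under it without the block and 7.1% with it. Of the remaining WRKY genes, WRKY20 and WRKY47 were at -0.39 and -0.01. WRKY29 and WRKY42 had mean signals under 100 and were not tested.

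Of the 4 genes, only WRKY53 passed the harvest comparison, which uses both genotypes equally. Differences between harvest means do not depend on the mean genotype difference. The error term of the test does rest on how far pairs differ, which for SAG29 and AT4G33150 includes their dim WT arrays. An F test over the 4 replicate numbers in limma, with genotype as a term, called 8.29% of all tested probe sets (397), and 1 of the 4 genes, WRKY53. The mean WRKY53 signals of both genotypes were 1046, 764.2, 516.0 and 157.4 in harvests 1 to 4, and the highest and lowest differed by 2.63 on the log2 scale, or 6.17-fold (adjusted p = 0.00649). WRKY6 had means of 615.9, 280.6, 459.2 and 270.4, a range of 1.15 on the log2 scale, and did not pass (unadjusted p = 0.0187, adjusted p = 0.109). Across all tested probe sets the median range was 0.82. SAG29 and AT4G33150 had ranges of 0.93 and 0.78 and did not pass either (adjusted p = 0.621 and 0.818). A missed threshold does not show that harvests were alike for these 3 genes.

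The WRKY53 call rested on the harvests with the extreme values. Without replicate 4 the adjusted p was 0.183 and without replicate 1 it was 0.0791, and it stayed under 0.05 without replicate 2 or 3 (0.000555 and 0.00634). Between the harvests of a single array set, WRKY53 was lower in replicate 2 than in replicate 1 by a log2 difference of -0.47 (adjusted p = 0.514) and lower in replicate 4 than in replicate 3 by -1.61 (adjusted p = 0.478). Neither passed, in contrasts that called 2 and 1 probe sets in all. After quantile normalization, which gives all arrays the same distribution, the F test still passed (adjusted p = 0.0119). The leaf markers, like the maximum signal of the arrays, were lower in replicates 3 and 4 and also passed the harvest test, with ranges of harvest means of 3.95 (RCA), 2.09 (PSBW) and 6.56 (PSAE-1) on the log2 scale. These are the brightest probe sets of each gene, and others of the same genes varied less: PSBW's other probe set missed the threshold (adjusted p = 0.0536), and the other PSAE-1 probe sets ran from 4696.6 to 17871 (adjusted p = 0.0216) and from 3706.3 to 12596 (adjusted p = 0.0916). The harvest and whatever else same-numbered arrays shared cannot be told apart.

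WRKY22 also passed the harvest test. Its signals were 1008.7, 273.0, 578.7 and 255.0 in WT replicates 1 to 4 and 907.8, 260.8, 372.1 and 222.5 in yda-2, a log2 range of harvest means of 1.94 (adjusted p = 0.0129). Both genotypes were highest in replicate 1 and next in replicate 3, the order that the WRKY6 means also had, whereas WRKY53 was second in replicate 2. Of the other tested list genes, leaf markers aside, TMT1 passed (adjusted p = 0.0124). ALDH7B4, KIN2 and COR15B came close to the threshold (adjusted p = 0.0526, 0.0596 and 0.0612).

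The variation of the 8 log2 signals can be divided between harvest, genotype and the remainder. The shares are of raw sums of squares. Harvest and the remainder have more degrees of freedom than genotype, so noise alone gives them larger shares. A share is therefore to be read against the median of all probe sets. For WRKY53 the harvest held 96.6%, genotype 0.0634% and the remainder 3.36%. For WRKY6 the shares were 58.4%, 33.5% and 8.18%. For SAG29 they were 15.6%, 47.8% and 36.6%, and for AT4G33150 they were 7.19%, 58.5% and 34.3%. The medians over all tested probe sets were 61.3%, 6.11% and 24.6%. The remainder, the part in which pairs differ in their genotype difference, was thus the lowest in WRKY53 and WRKY6 and above the median in SAG29 and AT4G33150. The genotype shares come from the comparison by which the genes were chosen.

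**Figure D4:**
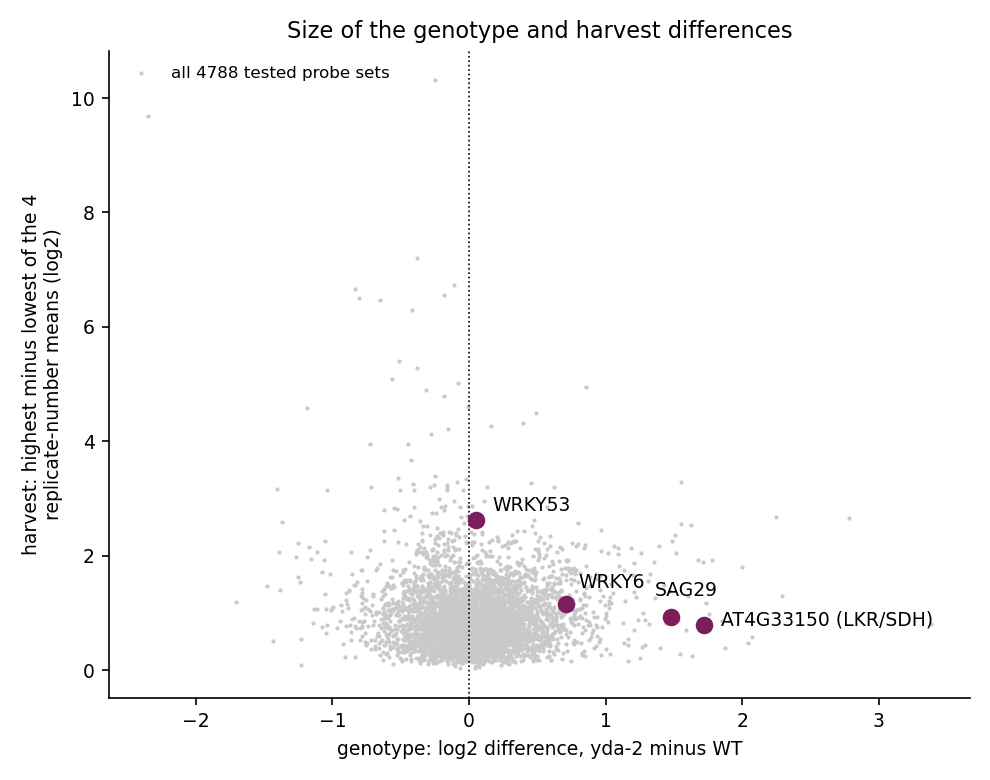
Each point is a tested probe set, with its log2 genotype difference (yda-2 minus WT) on the x axis and the log2 distance between the highest and lowest harvest mean on the y axis; the 4 genes are purple. WRKY53 lies at 0.05 and 2.63, and AT4G33150 at 1.72 and 0.78.

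Across the 8 arrays SAG29 and AT4G33150 varied together (Pearson r = 0.70), as did WRKY6 and AT4G33150 (0.68) and WRKY6 and WRKY53 (0.54). WRKY53 had no such relation with AT4G33150 (-0.04) or SAG29 (-0.20), and SAG29 and WRKY6 were at 0.35. After the mean of each array set was subtracted these 6 values were 0.70, 0.73, 0.58, 0.07, -0.27 and 0.38. The 8 points are 4 pairs, share the genotype difference that chose the genes, and include the WT replicate 2 array, so these values only describe the arrays.

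The genes with the closest pattern over the 8 arrays, among 1923 named and tested genes, differed for each of the 4. Closest to SAG29 were AT1G09460, a gene of the X8 carbohydrate-binding domain family (r = 0.910), the osmotin gene OSM34 (0.887) and HOS3-1, a gene like fatty acid elongases (0.885). For all of them, as for SAG29, WT replicate 2 was the lowest of the 8 arrays (78.9, 27.6 and 67.5). The log2 genotype difference of HOS3-1 was 0.52, and -0.05 without pair 2. WRKY6 was followed most closely by AT1G03220, an aspartyl protease family gene (0.948), AT1G09500, a reductase gene (0.919, and 0.766 on its other probe set) and AT2G25450, a dioxygenase gene of glucosinolate modification (0.881). WRKY53 was followed by CTF2B, a monooxygenase gene (0.936), the zinc finger gene STZ (0.935, and 0.859 on its other probe set) and a probe set of PSAE-1 (0.933). The other PSAE-1 probe sets were at 0.777 and 0.440, and the named one ran from 181.7 to 26842 over the arrays. AT4G33150 was followed by the class III peroxidase gene AT4G37520 (0.939), the acyltransferase gene AT4G24160 (0.903) and AT2G27500, a gene of the glucanase family (0.902). WT replicate 2 was also the lowest array for AT4G33150, AT4G37520 (381.3) and AT2G27500 (20.2), but not for AT4G24160. All the genes named in this paragraph were picked for their r alone. These are the highest of many values, and few stayed among the closest 3 after quantile normalization: 1 of 3 for SAG29, 2 for WRKY6, 0 for WRKY53 and 2 for AT4G33150. With the mean of each array set subtracted, 1 of 3 stayed for WRKY6 and 0 for each of the others.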

How the data were processed

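RNA of 4 WT and 4 yda-2 rosette samples was measured on 1 AtGenome1 array each. The deposited values are signal intensities on a linear scale, 1 per probe set and array, and the authors scaled the average of each array to 500, per the labels. The summary software is not given in the sources used here. Groups and replicate numbers come from the titles, and every column matched a sample. Here signals were taken as log2(signal + 16), 50 control probe sets were left out, and the 4788 probe sets whose signal averaged 100 or more over the arrays were fitted with limma 3.58.1 in R 4.3.3 (eBayes with intensity trend, two-sided, Benjamini-Hochberg adjustment over all of them, threshold 0.05), after tests on simulated data. Fold changes of dim probe sets are understated on this scale. Genotypes were compared without a block as the main fit. Harvests were compared by a moderated F test with genotype as a term. Replicates are separate plantings per the labels. Deviations of same-numbered arrays from their genotype means correlated at 0.596, 0.296, 0.324 and 0.577 across probe sets. Arrays with different numbers were not correlated in this way, and arrays of the same array set resemble each other on the first component. These values therefore cannot show that the numbers pair the arrays, and the pairing remains an assumption.

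Names come from the platform annotation, updated to TAIR10.1 symbols. It gives 1 gene to 3794 probe sets, several to 70 and none to 4383, and 3784 of the first matched. Lists count genes with a probe set named in this way, each by its brightest probe set, so a gene called absent may be on the array unnamed. The 4 genes and the 10 lists were chosen with earlier results of these data known. The text names every tested gene of a list (at most 12) and the 3 genes with the highest Pearson correlation with each of the 4. Depth does not apply to arrays, and their number limits the precision. Alternatives were other pseudocounts (1 and 64), no filter or one of 200, array weights, a robust or trend-free fit, median centring, quantile normalization, the replicate block, no genotype term for harvests, and leaving out arrays or pairs.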

Additional observations from a re-analysis of the deposited data

Results flagged for a closer look

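A sample was marked where its gap to the nearest of the 4 arrays of its genotype passed Dixon's critical value as a share of their range, in 84 groups of the named genes. There were 7 such samples, and about 5% of groups pass by chance. Among the 4 genes, WRKY6 in WT replicate 1 was at 515.6 with the other WT arrays between 218.8 and 256.8, while the yda-2 array of that replicate was the highest of its genotype at 716.2. ATG8E was at 2028.8 in WT replicate 2, against 3049.4 to 3217.6 in the other WT arrays, and WRKY20 was at 789.6 on the same array, against 229.6 to 286.7. STP3 in WT replicate 1 was at 221.2, against 333.6 to 346.4. AT2G25450, one of the genes with a pattern close to WRKY6, was at 446.1 in WT replicate 1, against 92.9 to 122.1. WRKY47 was at 214.4 in yda-2 replicate 2, against 132.9 to 145.5. AT4G24160, close to AT4G33150 in pattern, was at 534.5 in yda-2 replicate 3, against 355.3 to 380.2.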

How the results depend on the processing

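The log2 genotype differences of SAG29, WRKY6 and AT4G33150 were above 0 in all alternatives tried (0.95 to 1.91 in 23 for SAG29, 0.51 to 0.98 in 24 for WRKY6, 1.24 to 2.32 in 23 for AT4G33150), and a filter of 200 removed SAG29 and AT4G33150. WRKY53 was above 0 in 15 of 24 and below 0 in 9. All of these fits reuse the same arrays, and the genes were chosen with this comparison known. The constant sign is therefore no support for a genotype difference. The count of called probe sets for genotype, 2, was 9 with the replicate block, 11 with array weights and 1 without a filter. It was 0 with a pseudocount of 1, a filter of 200, quantile normalization, median centring, and the block with either normalization, fits that had 122 to 360 probe sets at an unadjusted p under 0.05 in limma. It ranged from 0 to 28 on leaving out arrays or pairs, with the 28 in the blocked fit without pair 2. In all of these fits 0 of the 4 genes were called, among those that each fit tested. The harvest count of 397 was 230 without a filter, 191 after quantile normalization, 138 without the trend, 883 with array weights, 2 and 1 in the contrasts within the array sets, and 51 to 646 without 1 replicate number. WRKY53 passed the harvest test in 12 of 14 alternatives, with an adjusted p of 0.000555 to 0.183 on leaving out a replicate number. The contrasts within the array sets are not among these 14, and WRKY53 passed in neither (adjusted p = 0.514 and 0.478). WRKY6 passed in 1 of 14, with array weights (adjusted p = 0.0232), and SAG29 and AT4G33150 in 0 of 13. The cause of these shifts was not tested. With no detection calls, signals near those of the non-plant controls have no firm order.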
